A study of Mus musculus with 6 samples.

Results

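The heat shock chaperones are described here by 10 genes, taken by their symbols from 34245 genes measured by RNA-seq in mouse lymphomas. They are Hsp90aa1 and Hsp90ab1 of the HSP90 family, Hspa8, Hspa1a and Hspa1b of the HSP70 family, Hsph1 of the HSP110 family, the J-domain gene Dnajb1, the mitochondrial pair Hspd1 and Hspe1, and Hsf1. Hsf1 encodes a transcription factor and not a chaperone, so 9 of the 10 genes are chaperones or co-chaperones. The tumors were peripheral T-cell lymphomas (PTCL) from lymph nodes of terminally sick FVB mice with 1 intact copy of Dnmt3b (genotype Dnmt3b+/-). RNA-seq was made from 3 independent tumors, named tumor 1, tumor 2 and tumor 3, each sequenced once. Bisulfite sequencing of 2 Dnmt3b+/- and 1 Dnmt3a-/- lymphomas of the same strain was not analysed here. The allele is a germline one, so every cell of these mice carries it, and the ages of the animals are not given in the labels. With a single group of tumors and no control group, the question open to the data is how the chaperone genes compare in level and how much they vary between tumors, and no test between groups was possible.

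Heat shock proteins bind unfolded or partly folded proteins and help them reach or regain their shape. HSP70 proteins bind short exposed stretches with the help of J-domain proteins and release them with the help of exchange factors such as HSP110, while HSP90 acts later on selected clients, many of them kinases and receptors. HSF1 is held inactive in unstressed cells and, on heat or other protein damage, binds repeats of the letters GAA in promoters and activates the inducible members.

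The authors deposited FPKM, in which the fragments counted for a gene are divided by its exon length and by the size of the library. Levels can thus be set side by side between genes. All FPKM of a tumor summed to 188740, 206902 and 223767 in tumors 1, 2 and 3, so comparisons between tumors depend on the scale. Genes without a read hold a small value that gave the size of the libraries, 30726570, 18969988 and 20770928 reads for tumors 1, 2 and 3. All 12 T-cell markers were present in every tumor, with Cd3e at 56.4, 78.1 and 65.3 FPKM and Cd8a at 259, 122 and 218 FPKM in tumors 1, 2 and 3, as the label of a T-cell lymphoma requires. Most genes were somewhat lower in tumors 2 and 3 than in tumor 1. Over the 11191 genes with a mean of at least 1 FPKM, the median difference in log2 FPKM was -0.18 for tumor 2 against tumor 1 and -0.24 for tumor 3 against tumor 1, and differences of single genes are to be read against these values.

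By their means over the 3 tumors, the 10 genes spanned from 452 ± 66.7 FPKM for Hsp90ab1 to 0.905 ± 0.802 FPKM for Hspa1a (SD, n = 3). The order was Hsp90ab1, Hspa8, Hspd1, Hsp90aa1, Hspe1, Hsf1, Dnajb1, Hsph1, Hspa1b and Hspa1a. Not all neighbours in this order differed beyond their range over the tumors. Hsp90ab1 was above Hspa8, and Hspa8 above all others, in every tumor. Hspd1, Hsp90aa1 and Hspe1, with means of 91.9, 89.2 and 79.0 FPKM, overlapped with each other and could not be ranked among themselves. The same held for Hsf1, Dnajb1 and Hsph1, with means of 18.6, 17.3 and 16.4 FPKM. Hspa1b and Hspa1a lay below every other member and overlapped with each other. Without tumor 1, 5 of the 10 genes kept their place in the order, and the exchanges fell among the genes that overlapped. By mean FPKM, 5 members were among the 341 genes at the top 1% of the table.

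**Figure D1:**
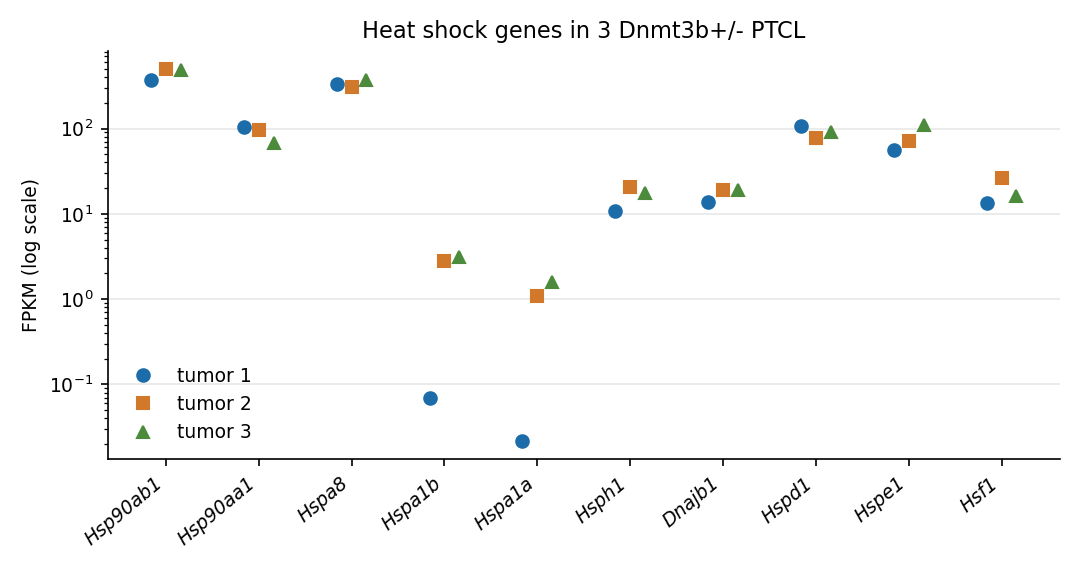
FPKM of the 10 heat shock genes on a log scale, 1 point for each of the 3 Dnmt3b+/- PTCL. For 8 genes the 3 tumors lie within 2-fold of each other, while Hspa1a and Hspa1b are at 0.0219 and 0.0697 FPKM in tumor 1 and above 1 FPKM in tumors 2 and 3.

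Summed over the 10 genes, the values were 1008, 1112 and 1180 FPKM in tumors 1, 2 and 3, a mean of 1100 ± 86.6 (SD, n = 3). The highest sum was 1.17 times the lowest, and as a share of all FPKM of a tumor it was 0.534%, 0.537% and 0.527%. Between 69.8% and 72.3% of the sum came from Hsp90ab1 and Hspa8, so the sum says little about the other members.

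Hsp90ab1 encodes the constitutive cytosolic HSP90. The gene is ENSMUSG00000023944, at chr17:45567775-45573271 in mm10, the build of all positions given here. Tumor 1 had 375 FPKM, tumor 2 had 495 and tumor 3 had 485. Tumors 2 and 3 were level with each other and above tumor 1, with a highest over lowest ratio of 1.32. Hsp90aa1 encodes the more inducible cytosolic HSP90 (ENSMUSG00000021270, chr12:110690605-110702728). It stood at 105 FPKM in tumor 1, at 95.4 in tumor 2 and at 67.3 in tumor 3. Here tumor 3 was the low one, and tumors 1 and 2 were within 1.10-fold of each other. The ratio of Hsp90aa1 to Hsp90ab1 within a tumor does not depend on the size of the library, and it was 0.280, 0.193 and 0.139 in tumors 1, 2 and 3. The constitutive gene was thus the more abundant of the pair in all 3 tumors. The values of Hsp90aa1 are uncertain, because the authors kept only reads of high mapping quality, which in the output of STAR are those that match a single place. Of the windows of 150 bases, the read length, along its longest coding transcript, 47.2% recurred exactly elsewhere in the genome, against 0 of 2371 windows of Hsp90ab1. Both mates place a read pair, so the share of fragments lost is not given by these windows.

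Hspa8 encodes the constitutive cytosolic HSP70, which takes part in everyday folding and in the uncoating of clathrin vesicles. The gene (ENSMUSG00000015656, chr9:40800984-40810087) measured 329, 303 and 368 FPKM in tumors 1, 2 and 3. On the deposited scale it varied least of the 10 genes, with an SD of 9.84% of its mean and a 1.22-fold difference at most. With median-of-ratios factors, which remove the general shift between tumors, and with centring on genes of like GC share, Hspa8 differed by 1.31-fold and 1.43-fold, more than Hspd1 with 1.22-fold and 1.15-fold. Of its windows 56.0% recurred elsewhere, more than for any other member, so its level is likewise uncertain.

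Hspa1a and Hspa1b encode the stress-inducible HSP70, which many unstressed cells hold at low levels. They lie on the same strand of chromosome 17, Hspa1b at chr17:34956436-34959238 and Hspa1a at chr17:34969190-34972156, with 9951 bases between them. Their promoters are shown because the values of these genes move together. Of the 250 bases before the start, 247 were identical by position, and both hold the letters GAANNTTC, a pair of the inverted units that heat shock factors bind, from 104 to 97 bases before the start. This motif, which reads the same on both strands, was in 6.69% of 32851 mouse promoters of that length, and TTCNNGAA, its other arrangement, in 7.17%. The motifs overlap where units follow each other, and 12.8% of promoters hold either. The 150 bases before each start follow from RefSeq (GRCm38.p6, minus strand, chr17:34972157-34972306 for Hspa1a and chr17:34959239-34959388 for Hspa1b), in lower case with the motif in capitals. No annotated exon lies in either stretch.
Hspa1a: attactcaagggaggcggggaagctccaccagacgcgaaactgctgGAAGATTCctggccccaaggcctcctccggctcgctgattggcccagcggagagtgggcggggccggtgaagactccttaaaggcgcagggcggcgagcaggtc
Hspa1b: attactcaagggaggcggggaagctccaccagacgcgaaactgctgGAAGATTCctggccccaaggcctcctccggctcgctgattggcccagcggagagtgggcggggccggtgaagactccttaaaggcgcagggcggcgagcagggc
Such a match is a description of letters and not of a bound factor.

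Hspa1b (ENSMUSG00000090877) measured 0.0697, 2.80 and 3.11 FPKM in tumors 1, 2 and 3, counted as 6, 149 and 181 reads. Tumor 1 stood far below the other tumors, whose values were within 1.11-fold of each other. The 95% Poisson interval was 0.0256 to 0.152 FPKM in tumor 1, against 2.37 to 3.29 in tumor 2 and 2.67 to 3.60 in tumor 3. These intervals cover counting error only. Tumor 3 was 44.6-fold above tumor 1, with an exact interval of 20.1 to 123. This ratio ranked 242 among the 11191 genes with a mean of at least 1 FPKM. Hspa1b reached that mean only through tumors 2 and 3, where it was high, so its rank is only a description. Hspa1a (ENSMUSG00000091971) measured 0.0219, 1.10 and 1.59 FPKM, counted as 2, 62 and 98 reads. The order of the tumors was the same as for Hspa1b. Tumor 3 was 72.5-fold above tumor 1, and with 2 reads in tumor 1 the exact counting interval of this ratio runs from 19.5 to 607. The RNA is bulk, so fewer cells that express these genes and less RNA per cell cannot be told apart. Each gene's reads are also uncertain, since 39.7% of the windows of Hspa1a and 40.5% of those of Hspa1b recurred elsewhere, in the other copy among other places, with identical runs of up to 638 bases. A gene on the opposite strand, Gm20481, lies within Hspa1a and had 0, 26 and 39 reads in tumors 1, 2 and 3. The sources do not say whether strand was used in counting, so its reads and those of Hspa1a cannot be told apart. Hspa1l, a related HSP70 gene on the opposite strand, lies 546 bases beyond Hspa1a and had its highest value in tumor 1, with 0.829, 0.512 and 0.175 FPKM. It overlaps Gm10501 on the other strand, with 60, 19 and 9 reads against its own 63, 24 and 9, so the doubt about strand holds for it too. These neighbours were chosen after their values were seen. Added together, Hspa1a and Hspa1b reached 0.000279, 0.0129 and 0.0128 of the FPKM of Hspa8 in tumors 1, 2 and 3, so the inducible genes were a small part of cytosolic HSP70 RNA in all 3 tumors.

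Hsph1 encodes an HSP110 protein that acts as an exchange factor of HSP70 (ENSMUSG00000029657, chr5:149614287-149636376). Tumor 1 held 10.7 FPKM, tumor 2 held 20.8 and tumor 3 held 17.6. Tumor 1 was again lowest, and the highest over lowest ratio was 1.94. Its promoter entries overlap, and both hold the same TTCNNGAA. This stretch is shown from RefSeq with the motif in capitals, since Hsph1 was also lowest in tumor 1 (GRCm38.p6, minus strand, chr5:149636351-149636380), where the annotation also has an exon of Hsph1.
Hsph1: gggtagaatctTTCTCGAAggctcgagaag
Dnajb1 encodes the J-domain protein that delivers clients to HSP70 and is itself inducible (ENSMUSG00000005483, chr8:83608193-83612653). Its values were 13.9, 19.1 and 19.0 FPKM in tumors 1, 2 and 3. Tumors 2 and 3 were level and tumor 1 lower, but by 1.38-fold at most. Neither of its promoter entries holds either arrangement of the motif. None of the windows of Hsph1 or Dnajb1 recurred elsewhere in the genome. Against Hspa8 in the same tumor, Hsph1 stood at 0.0327, 0.0689 and 0.0478, and Dnajb1 at 0.0422, 0.0632 and 0.0517, in tumors 1, 2 and 3. Both helpers were lowest against Hspa8 in tumor 1 and highest in tumor 2, but for Dnajb1 the highest tumor moved after GC centring, where its ratios were 0.0501, 0.0517 and 0.0520.

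Hspd1 and Hspe1 encode HSP60 and HSP10, which form the folding chamber of the mitochondrial matrix and its lid. They lie head to head on chromosome 1, Hspd1 on the minus strand at chr1:55077835-55088243 and Hspe1 on the plus strand at chr1:55088132-55091307, and 112 bases are shared by both gene models. A promoter entry of each gene holds the same run of alternating GAA and TTC units, in which 3 of the motifs overlap, while a further entry of Hspd1 holds none. Runs of at least 3 units were in 0.466% of promoters. The run is shown because the genes share it, from RefSeq on the strand of Hspe1, with the motifs in capitals, 95 to 66 bases before its start (GRCm38.p6, plus strand, chr1:55088053-55088082), where the annotation also has an exon of Hspd1.
Hspe1: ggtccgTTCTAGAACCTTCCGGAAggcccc
Hspd1 (ENSMUSG00000025980) measured 106, 78.0 and 91.7 FPKM in tumors 1, 2 and 3. Hspe1 (ENSMUSG00000073676) measured 55.6, 71.0 and 110 FPKM. As deposited, Hspd1 was highest in tumor 1, where Hspe1 was lowest, but with median-of-ratios factors and with GC centring both were highest in tumor 3. The ratio of Hspe1 to Hspd1 was 0.524, 0.909 and 1.20 in tumors 1, 2 and 3, a range of 2.30-fold. Of their windows 19.3% for Hspd1 and 14.1% for Hspe1 recurred elsewhere.

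Hsf1, the main activator of the heat shock response (ENSMUSG00000022556, chr15:76477445-76500972), measured 13.3, 26.4 and 16.2 FPKM in tumors 1, 2 and 3. Tumor 2 stood above the others and tumor 1 was lowest, at a highest over lowest ratio of 1.98. HSF1 is controlled mainly as a protein, so its RNA is not a measure of its activity. Of 8 other heat shock factors and regulators, 4 had a mean of at least 1 FPKM, and 1 of these, Hsf4, differed by at least 2-fold, beside 34.4% of all genes. Hsf4, a factor best known from the lens of the eye, measured 0.613, 7.16 and 11.3 FPKM, counted as 33, 238 and 413 reads, and so passed that mean only through tumors 2 and 3. It was low in the same tumor as Hspa1a and Hspa1b. Hsbp1, which encodes a small protein that binds HSF1, hardly varied, with 12.8, 13.4 and 13.3 FPKM, and Hsf3 had no read in any tumor. Of the 10 genes, 6 have a promoter entry in the RefSeq table and 5 of these hold a motif in at least 1 entry. By entry it is 6 of 9, beside 12.8% of all promoters. They are not separate sequences, since Hspa1a and Hspa1b are near-identical there and Hspd1 and Hspe1 share 1 run. Both entries of Hsph1 also overlap and hold the same motif. Hspa8, Hsp90aa1, Hsp90ab1 and Hsf1 have no entry.

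Of the whole group, 2 of the 10 genes, Hspa1a and Hspa1b, differed by at least 2-fold between the highest and the lowest tumor. Over all genes with a mean of at least 1 FPKM this share was 34.4%, with a median ratio of 1.68, and how the members compare with it depends on the scale. Of the 10 genes, 9 had a mean of at least 1 FPKM, as the genes behind this share do, and 1 of these 9 differed by at least 2-fold. It is Hspa1b, which passed only through tumors 2 and 3. Hspe1, Hsf1 and Hsph1 lay just under 2-fold, at 1.98, 1.98 and 1.94, and with median-of-ratios factors 5 of the 10 passed, Hspa1a, Hspa1b, Hsph1, Hspe1 and Hsf1, beside 32.5% of all genes. Without tumor 1 no member reached 2-fold, beside 16.4% of all genes. Relative to the median difference of all genes, 9 of the 10 were above it in tumor 2 against tumor 1, all but Hspd1, and 9 in tumor 3 against tumor 1, all but Hsp90aa1. Of the 10 genes, the highest value lay in tumor 1 for 2, in tumor 2 for 4 and in tumor 3 for 4, beside 50.6%, 33.7% and 15.7% of all genes. Those highest in tumor 1 were Hsp90aa1 and Hspd1. Conversely 7 of the 10 were lowest in tumor 1, against 24.3% of all genes, a count that was made after the values had been seen. These 7 are Hsp90ab1, Hspa1a, Hspa1b, Hsph1, Dnajb1, Hspe1 and Hsf1, and the count was 8 with median-of-ratios factors, where 36.2% of all genes were lowest in tumor 1. Median-of-ratios factors also left no member highest in tumor 1 and put 7 of the 10 highest in tumor 3, beside 36.9% and 26.3% of all genes on that scale.

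**Figure D2:**
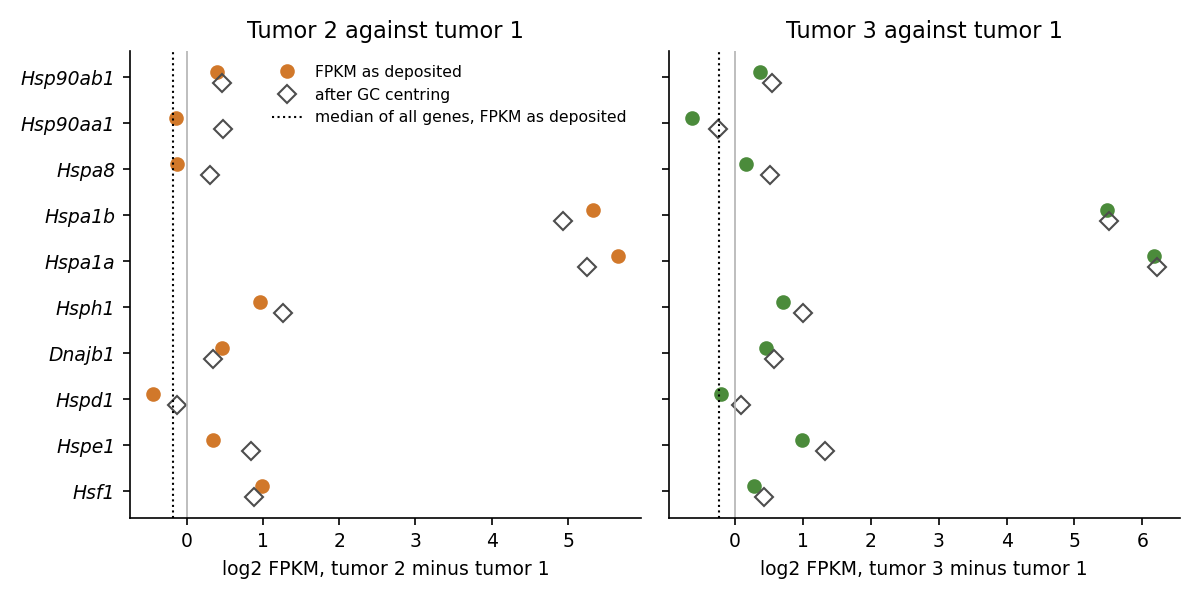
Differences in log2 FPKM of the 10 heat shock genes, tumor 2 (left) and tumor 3 (right) minus tumor 1, as deposited (filled) and after centring on genes of like GC share (open). The dotted line is the median of all genes as deposited, -0.18 on the left and -0.24 on the right, and Hspa1a and Hspa1b lie between 4.93 and 6.21 under both scales.

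Genes were next split by the GC share of their longest transcript into 5 bins of like size, since base composition moved with the differences between tumors. In the bin with the lowest GC share, 28.1% to 43.8%, the median difference in log2 FPKM was -0.78 for tumor 2 against tumor 1, and in the bin with the highest share, 55.4% to 85.7%, it was 0.36. For tumor 3 against tumor 1 these medians were -0.45 and -0.05. The members range from 43.7% GC for Hsp90aa1 to 58.9% for Hspa1a. Centring each tumor on the median of genes of like GC share, an alternative added after the data were seen, put 4 of the 10 at or above 2-fold, Hspa1a, Hspa1b, Hsph1 and Hspe1, beside 27.6% of all genes. Hspa1b then differed by 45.5-fold and Hspa1a by 73.8-fold, Hspe1 by 2.51-fold and Hsph1 by 2.41-fold. After this centring no member was highest in tumor 1, beside 35.7% of all genes, and 7 were highest in tumor 3, beside 30.2%. Lowest in tumor 1 were 8 members, beside 35.3% of all genes. The ratio of Dnajb1 to Hspa8 narrowed from a range of 1.5-fold to 1.04-fold. That of Hsp90aa1 to Hsp90ab1 became 0.234, 0.238 and 0.135, so that tumors 1 and 2 were level and tumor 3 was still the lowest. The ratio of Hspe1 to Hspd1, 2 genes of like GC share, remained at 0.498, 0.977 and 1.19. What sets the GC trend between the tumors was not tested.

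**Figure D3:**
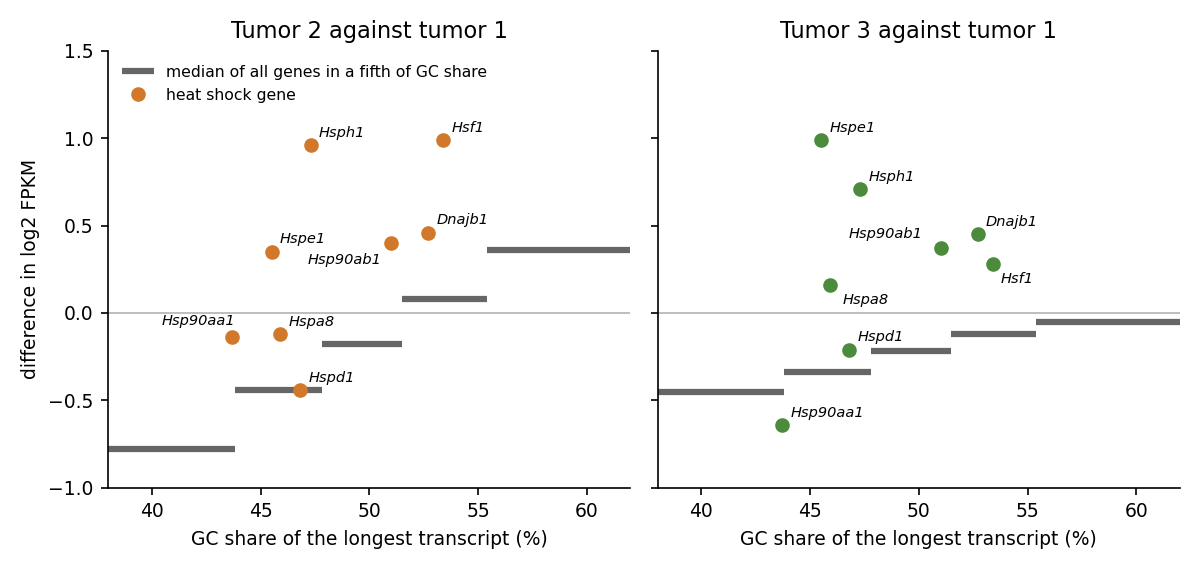
Difference in log2 FPKM against the GC share of the longest transcript, tumor 2 (left) and tumor 3 (right) minus tumor 1. Bars are medians of all genes with a mean of at least 1 FPKM in each of 5 bins of GC share, drawn from 38% to 62% GC, and points are the heat shock genes other than Hspa1a and Hspa1b, which lie above the scale.

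Partner genes of the cytosolic chaperones are given beside all genes, of which 34.4% differed by at least 2-fold, or 27.7% of those with a mean of at least 10 FPKM, with no test of the difference. Of 12 HSP90 co-chaperones, all with a mean of at least 1 FPKM, 2 differed by at least 2-fold, Fkbp5 and Sugt1, and the median highest over lowest ratio was 1.43. With median-of-ratios factors 1 did and with columns rescaled to a common sum 3 did, beside 32.5% and 39.4% of all genes. Stip1, which links HSP70 to HSP90, was the most abundant, with 52.9, 51.4 and 57.8 FPKM in tumors 1, 2 and 3. Fkbp4, an immunophilin of steroid receptor complexes, had 27.6, 41.2 and 32.5 FPKM. Fkbp5, a related gene that glucocorticoids induce, had 13.8, 5.88 and 6.01 FPKM and was high in tumor 1 alone. Of 18 cytosolic J-domain genes and HSP70 cofactors, 15 had a mean of at least 1 FPKM. Of these, 3 differed by at least 2-fold, with a median ratio of 1.35, while 1 did with median-of-ratios factors, beside 32.5% of all genes. Dnaja2 and Dnajc7, J-domain genes like Dnajb1, had 35.9, 25.2 and 30.0 and 32.1, 28.9 and 29.8 FPKM. Of these 15 genes Dnajb2 differed most, with 1.42, 5.14 and 3.50 FPKM. Bag3, an exchange factor that is also a known target of HSF1, had 1.71, 0.823 and 1.26 FPKM and so was highest in the tumor where Hspa1a and Hspa1b were lowest.

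Other HSP70 genes had their highest values in tumor 1 more often than in the other tumors. All 7 of the 11 further HSP70 and HSP110 genes with a mean of at least 1 FPKM were highest in tumor 1, beside 50.6% of all genes, and 6 of 7 with median-of-ratios factors, beside 36.9%. Hspa9, the mitochondrial HSP70, had 56.1, 24.8 and 36.7 FPKM, and Hspa5, that of the endoplasmic reticulum (ER), had 98.4, 87.3 and 58.9 FPKM. Of 16 ER chaperones, among which Hspa5 and Hyou1 are counted again, 15 were highest in tumor 1, 13 with median-of-ratios factors, and their median difference in log2 FPKM was -0.53 for tumor 2 and -0.70 for tumor 3 against tumor 1. Hsp90b1, the HSP90 of the ER, had 128, 67.7 and 69.9 FPKM, and the disulfide isomerase gene Pdia3 had 188, 107 and 94.4. Of the 16, 2 differed by at least 2-fold, Dnajb9 and P4hb, beside 34.4% of all genes. With columns rescaled to a common sum 6 did, beside 39.4%, and with median-of-ratios factors 1 did, beside 32.5%, while the median ratio of 1.66 was close to that of all genes. Plasma cells are rich in ER. The summed FPKM of 5 plasma cell markers was 866, 203 and 219 in tumors 1, 2 and 3, with Jchain as the most abundant gene at 814, 185 and 179 FPKM. Of the 5, only Jchain and Xbp1 were highest in tumor 1, and Jchain made up most of the sum. Mzb1, with 11, 2.62 and 25.8 FPKM, and Sdc1, with 0.957, 0.595 and 1.09 FPKM, were highest in tumor 3, and Prdm1 had 3.07, 3.10 and 2.64 FPKM. Their part in the ER values was not tested.

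Of 12 mitochondrial chaperones and proteases, among which Hspa9 is counted again, 2 differed by at least 2-fold, Hspa9 and Yme1l1. This stood beside 34.4% of all genes, and the median ratio was 1.28, beside 1.68 for all genes. Of the 12, 9 were highest in tumor 1, beside 50.6% of all genes, and 5 with median-of-ratios factors, beside 36.9%. Trap1, the mitochondrial HSP90, had 33.7, 28.3 and 28.0 FPKM. Of 9 genes for subunits of the cytosolic chaperonin TRiC, which folds actin and tubulin, 8 had a mean of at least 1 FPKM. None of these differed by 2-fold, while 3 did with columns rescaled to a common sum, beside 39.4% of all genes. Cct2 had 96.7, 51.4 and 82.3 FPKM and Cct5 had 71.5, 81.4 and 71.0 FPKM. Of 10 genes listed by their symbols as small heat shock proteins, 2 had a mean of at least 1 FPKM, Hspb11 and Hspb6. Hspb11 had 2.94, 3.36 and 1.49 FPKM and Hspb6 had 1.30, 1.01 and 1.03 FPKM. Only Hspb11 differed by at least 2-fold, beside 34.4% of all genes. Hspb1, which is inducible by heat in many cells, had 5, 21 and 4 reads, and Hspb3 and Hspb7 had none in any tumor.

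**Figure D4:**
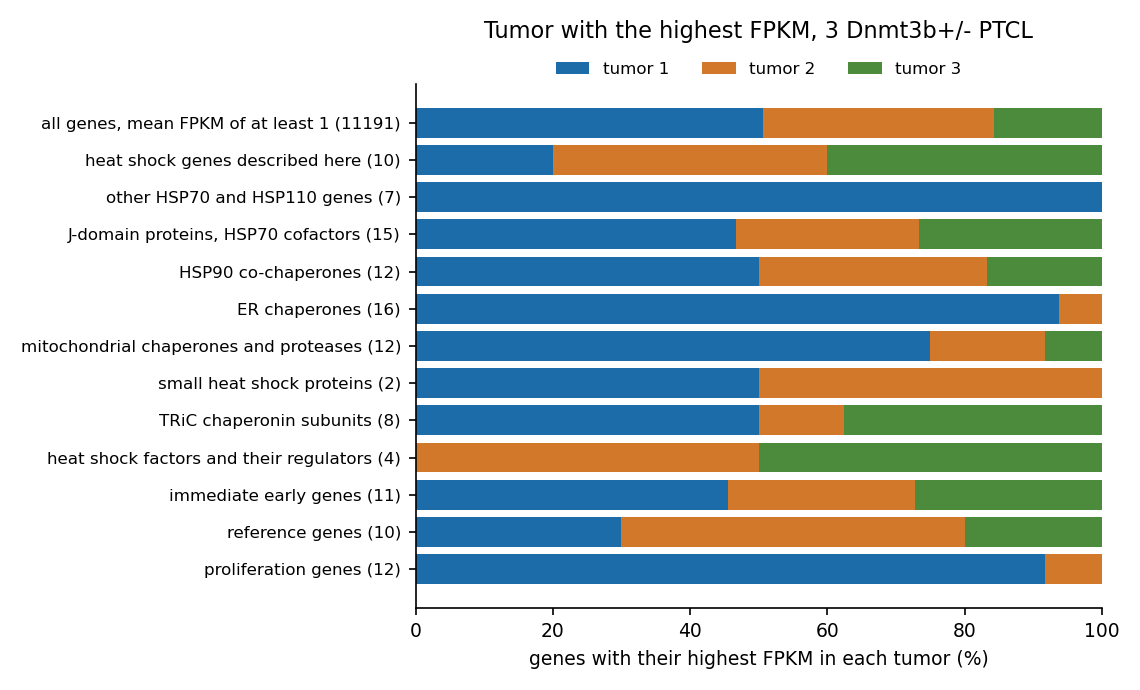
Share of genes with their highest FPKM in tumor 1, 2 or 3, for all genes with a mean of at least 1 FPKM, the 10 heat shock genes and 11 gene lists, with the number of genes in brackets. Of the 10 heat shock genes 2 are highest in tumor 1, against 15 of 16 ER chaperones and 50.6% of all genes.

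Genes outside the chaperone system give a scale for these differences. Of 14 immediate early genes, whose RNA responds to handling and to signals within minutes, 11 had a mean of at least 1 FPKM and 5 of these differed by at least 2-fold, beside 34.4% of all genes. Jun had 25.1, 6.51 and 10.8 FPKM and Fos 0.747, 0.762 and 5.02 FPKM, so the list had no common tumor. Of 10 reference genes, 2 differed by at least 2-fold, 4 with median-of-ratios factors and 1 with columns rescaled to a common sum. The shares of all genes on these scales were 34.4%, 32.5% and 39.4%. Gapdh, an enzyme gene of glycolysis, had 68.4, 150 and 94.0 FPKM and was lowest in tumor 1. Actb, the cytoplasmic actin gene, had 1114, 1434 and 1409 FPKM. Of 12 proliferation genes, 11 were highest in tumor 1, beside 50.6% of all genes, and 9 with median-of-ratios factors, beside 36.9%. Of the 12, 6 differed by at least 2-fold, with a median ratio of 2.04, beside 34.4% and 1.68 for all genes. With median-of-ratios factors 6 did, beside 32.5%, and with columns rescaled to a common sum 7 did, beside 39.4%. Pcna had 88.0, 55.9 and 63.6 FPKM and Mki67 had 38.7, 30.4 and 12 FPKM.

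Markers of other cells differed strongly between the tumors. The summed FPKM of 7 macrophage markers was 432, 146 and 36.3 in tumors 1, 2 and 3, 6 of them highest in tumor 1, with Lyz2 as the most abundant. That of 6 neutrophil markers was 36.2, 1.42 and 15.4, mostly S100a9 and S100a8. The others had few reads, with 6, 1 and 9 for Camp, whose FPKM was highest in tumor 3. Ly6g and Mpo had 1, 0 and 0 reads each, and the granule gene Elane had no read in any tumor. That of 7 B-cell markers was 61.3, 14.5 and 110, 6 of them highest in tumor 3, with Cd79a as the most abundant. Fibroblast, endothelial and acinar markers were low in tumor 3. Their sums were 11.4, 41.7 and 0.362 for 6 fibroblast markers led by Col1a1, 14.6, 14.8 and 5.33 for 5 endothelial markers led by Pecam1, and 87.0, 440 and 0.657 for 8 pancreatic acinar markers led by Ctrb1. All 8 acinar markers were highest in tumor 2. The T-cell markers summed to 1578, 1290 and 1693. The part of macrophages and neutrophils, whose summed markers were highest in tumor 1, in the low Hspa1a and Hspa1b values there was not tested.

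Genes with a profile near that of the inducible members were sought by the distance of their centred log2 FPKM over the 3 tumors to the mean profile of Hspa1a, Hspa1b, Dnajb1 and Hsph1, which was -2.10, 1.00 and 1.10. This mean lies between the large differences of Hspa1a and Hspa1b and the small ones of Dnajb1 and Hsph1, so that genes near it are close to none of the 4. The nearest 5 of the genes with a mean of at least 1 FPKM were AC130217.1, Wnt8a, 1810006J02Rik, Rpl37 and St3gal6, at distances of 0.26, 0.28, 0.34, 0.37 and 0.38. Rpl37, a ribosomal protein gene, had 190, 1228 and 1252 FPKM in tumors 1, 2 and 3, and St3gal6, a sialyltransferase gene, had 2.58, 19.5 and 16.5 FPKM. Being lowest in tumor 1 was set by this choice. How common such likeness is over 3 tumors was not counted, so it is only a description. Of the 11191 genes, 28 were at least 10-fold higher in both tumors 2 and 3 than in tumor 1, a threshold chosen after the values were seen. Hspa1b, Hsf4 and Gm20481, which overlaps Hspa1a, were among them. Hspa1b, Hsf4 and Gm20481 reached a mean of at least 1 FPKM only through tumors 2 and 3, so their place there is only a description.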

How the data were processed

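Paired-end RNA-seq was made from 3 Dnmt3b+/- PTCL. Reads were aligned by the authors to mm10 with STAR and counted per gene in SeqMonk; the authors deposited linear FPKM, 1 column per tumor, with no column left unassigned. A gene without a read holds a value equal to 0.9 read, which gave the library sizes. Reads per gene, recovered with GENCODE M21 exon lengths, were whole within 0.005 read (for high counts, within a small share of the reads) for 92.0%, 91.9% and 92.0% of values in tumors 1, 2 and 3, though not for Hsf1. The 26 symbols turned into dates were restored, and of repeated symbols the row with the highest mean was used. No pseudocount was added. The rule for named genes covers the members, of each list the 3 highest means and 2 largest ratios, and the 5 nearest profiles. Not all list genes it covers are named, a choice made after their values were seen, and 1 is not reported here. Markers, genes with no read and genes marked in the text are named beside it. No row was named as a pseudogene of a member. Members and lists were chosen with earlier results of these data known. Alternatives were other scales, thresholds, filters, a pseudocount, summed symbols and leaving out each tumor, with GC centring in 20 bins added after the data were seen. Steps were tested on simulated data. Bisulfite sequencing was not analysed here. Tables were made in Python 3.11.15 with pandas 2.3.3 and NumPy 2.4.6, intervals with SciPy 1.17.1, and plots with matplotlib 3.10.9.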

Additional observations from a re-analysis of the deposited data

How the results depend on the processing

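No paired analysis was possible because there is a single group. Of 66 alternative values, 51 stayed within 1.5 times the count or within 1 SD of the mean, among them all 5 for the genes lowest in tumor 1. For the ratios between members only the mean over tumors was compared. GC centring left this mean nearly fixed, apart from Hspa1a plus Hspa1b over Hspa8, which went from 0.00865 to 0.00773. The range of that ratio between tumors went from 46.3-fold to 36.5-fold. The range of Dnajb1 over Hspa8 between tumors went from 1.5-fold to 1.04-fold and that of Hsp90aa1 over Hsp90ab1 from 2.02-fold to 1.76-fold. The count of members at or above 2-fold was 5 with median-of-ratios factors, 4 with GC centring and 6 at a fold of 1.5. The shares of all genes were 32.5%, 27.6% and 62.8%. The count was 0 without tumor 1, 2 without tumor 2 and 2 without tumor 3, beside 16.4%, 17.7% and 25.3%. The members highest in tumor 1 numbered 0 with median-of-ratios factors and 0 with GC centring, beside 36.9% and 35.7% of all genes. They numbered 3 with columns rescaled to a common sum, beside 60.5%. With a tumor left out they numbered 2 without tumor 2 and 3 without tumor 3. Of all genes, 32.4% were higher in tumor 3 than in tumor 1, and 41.2% were higher in tumor 2 than in tumor 1. The members highest in tumor 2 numbered 7 without tumor 3, beside 41.2% of all genes. Without tumor 1 they numbered 5, where 45.8% of all genes were higher in tumor 3 than in tumor 2 and most were higher in tumor 2. Those highest in tumor 3 numbered 7 with median-of-ratios factors and 7 with GC centring, beside 26.3% and 30.2% of all genes. With columns rescaled to a common sum the count was 3, beside 8.75%. It was 5 without tumor 1 and 8 without tumor 2, beside 45.8% and 32.4%. With each column rescaled to sum to 1000000, the mean sum of the members was 5330, by construction of that scale, and it was 1060 to 1146 FPKM with a tumor left out. Between 5 and 8 members kept their place in the order of means with a tumor left out. Of the 106 list genes with a mean of at least 1 FPKM, 24 differed by at least 2-fold, 57 by 1.5-fold and 10 by 3-fold, beside 34.4%, 62.8% and 16.5% of all genes, and 40 of 129 did by 2-fold without a filter, beside 29.5%. GC centring was chosen after seeing the data. Apart from the rescaled sum and the changed thresholds and filters, the cause was not tested. Depth limits Hspa1a and Hspa1b in tumor 1, with 2 and 6 reads.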
